A study of Mus musculus with 2 samples.

Results

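The division of iron handling between the cells of the mouse fetal liver was followed through 9 genes of iron uptake, storage and recycling. They were taken as a list of names: the transferrin receptor Tfrc, the endosomal iron transporter Slc11a2, the endosomal ferrireductase Steap3, the mitochondrial iron importer mitoferrin 1 (Slc25a37), the ferritin heavy and light chains Fth1 and Ftl1, the iron exporter ferroportin (Slc40a1), haem oxygenase 1 (Hmox1) and transferrin (Trf). All 9 were present among the 32285 genes of both matrices. On the GRCm38 assembly with GENCODE vM21, they lie at chr16:32608920-32632794 (Tfrc, plus strand), chr15:100387898-100425072 (Slc11a2, minus), chr1:120190757-120272705 (Steap3, minus), chr14:69241848-69285112 (Slc25a37, minus), chr19:9980598-9985098 (Fth1, plus), chr7:45457944-45459884 (Ftl1, minus), chr1:45908068-45926523 (Slc40a1, minus), chr8:75093621-75100589 (Hmox1, plus) and chr9:103204001-103230444 (Trf, minus).

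The study profiled single cells of the E14.5 fetal liver of CD1 mice with droplet 3′ RNA sequencing, in which each captured transcript is counted once through a unique molecular identifier (UMI). One library came from a pool of 2 wild-type (WT) embryos and 1 from a pool of 3 embryos lacking IκBα (KO), the inhibitor of NF-κB encoded by Nfkbia, in a germline knockout that removes the gene from every cell of the embryo. The cells were labelled as lineage-negative, SCA1+ cKIT+ (LSK) cells, the stem and progenitor gate, although the sample titles speak of LT-HSC, and CD11b was left out of the lineage depletion. With 1 library a genotype there was no test between genotypes: each value is given with an exact Poisson or binomial 95% interval, which covers counting error only, and a difference between KO and WT is a difference between 2 libraries.

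Transferrin in plasma delivers ferric iron to cells that carry the transferrin receptor, and erythroblasts, which need it for haem, take up most of it. Inside the endosome the iron is reduced and passed to the cytosol, from where mitoferrin carries it to the site of haem synthesis, while surplus iron is kept in ferritin shells of heavy and light chains. Macrophages of the erythroblastic islands engulf expelled nuclei and old red cells, open the haem ring with haem oxygenase and release the iron through ferroportin, and hepatocytes make the transferrin.

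Part of this system is set by RNA hairpins, the iron-responsive elements, which iron-regulatory proteins bind when iron is short: in a 5′ UTR the bound element blocks translation and in the 3′ UTR of Tfrc it protects the mRNA. The elements are shown because they mark which of the 9 transcripts hold the strict form of the hairpin searched here. The search does not show that a transcript without this form lacks the control. For the 5′ elements the control is a layer that UMI counts do not see. The search asked on the transcript strand for an unpaired C, 5 bases, the loop CAGTGN with a last base other than G, and 5 bases pairing with the first 5 (G with T allowed). In the sequences below, in GRCm38 and written 5′ to 3′ on the transcript strand, capitals mark the unpaired C and the 6-base loop.
Fth1 5′ UTR, chr19:9982732-9982761, plus strand: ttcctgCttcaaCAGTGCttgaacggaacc
Ftl1 5′ UTR, chr7:45459778-45459807, minus strand: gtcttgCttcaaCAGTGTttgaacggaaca
Slc40a1 5′ UTR, chr1:45925464-45925493, minus strand: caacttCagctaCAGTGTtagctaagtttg
Tfrc 3′ UTR, chr16:32631219-32631248, plus strand: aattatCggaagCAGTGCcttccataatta
Tfrc 3′ UTR, chr16:32631598-32631627, plus strand: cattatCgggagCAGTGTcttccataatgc
Tfrc 3′ UTR, chr16:32631663-32631692, plus strand: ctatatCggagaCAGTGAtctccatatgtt
Tfrc 3′ UTR, chr16:32631710-32631739, plus strand: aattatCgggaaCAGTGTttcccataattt
The 4 genes Fth1, Ftl1, Slc40a1 and Tfrc were the only ones of the 9 that held such an element in an annotated UTR, against 122 of 21630 protein-coding genes (0.564%). The bare loop start CAGTG stood in a UTR of 8 of the 9 and of 75.6% of all genes. A match is a description of the letters and no match says only that these letters are absent from the annotated UTRs.

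The 2 matrices held 3840 WT and 4928 KO barcodes and 109122324 and 100029143 UMIs. After cells with fewer than 1000 genes or over 20% mitochondrial UMIs were dropped, 3458 WT and 4417 KO cells stayed, with a median of 28065 and 19560 UMIs. Nfkbia had 1478 UMIs in WT and 7 in KO, which was 13.6 (12.96–14.36) against 0.0707 (0.0284–0.146) counts per 1000000 UMIs (CPM). The pools also differed in embryo sex: 0.116% of WT cells and 17.4% of KO cells held Y-linked UMIs and no Xist.

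Cells were assigned to 12 populations by marker genes, none of which is an iron, haem or globin gene, so each population is like its name only through those markers: stem-like, macrophage-like and so on, shortened below. The stem gate used genes such as Hlf, Mecom and Procr, the erythroid gate Klf1, Gata1 and Epor among others, the macrophage gate C1qa, Csf1r and Adgre1 among others, and the hepatocyte gate Alb, Afp and Apoa1 among others. Of the 7875 cells, 5948 met 1 gate, 1725 met none and 202 met several and were set aside. The erythroid cells numbered 3909 and were split by the share of late markers (Slc4a1 and Epb42 among others) among early and late marker UMIs, at 0.3, 0.5 and 0.7, into stages 1 to 4. The gates held 390 WT and 371 KO stem cells, 389 and 407 erythroid stage 1, 459 and 570 stage 2, 334 and 559 stage 3, 490 and 701 stage 4, 35 and 82 macrophages and 26 and 58 hepatocytes. The sort label was checked against its own antigens: Ly6a, which encodes SCA1, was at 29.4 CPM in WT and 41.2 in KO stem cells but between 0.41 and 1.28 in the erythroid stages, and Kit was at 121 and 109 CPM in stem cells and at 3.14 and 5.09 in erythroid stage 4. Macrophages had 10.8 and 7.33 CPM of Ly6a and 34.8 and 34.0 of Kit, and hepatocytes 1.67 and 1.10 of Ly6a and 7.50 and 3.31 of Kit, so the populations in which the iron genes centre carried less of both transcripts than the stem gate.

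**Figure D1:**
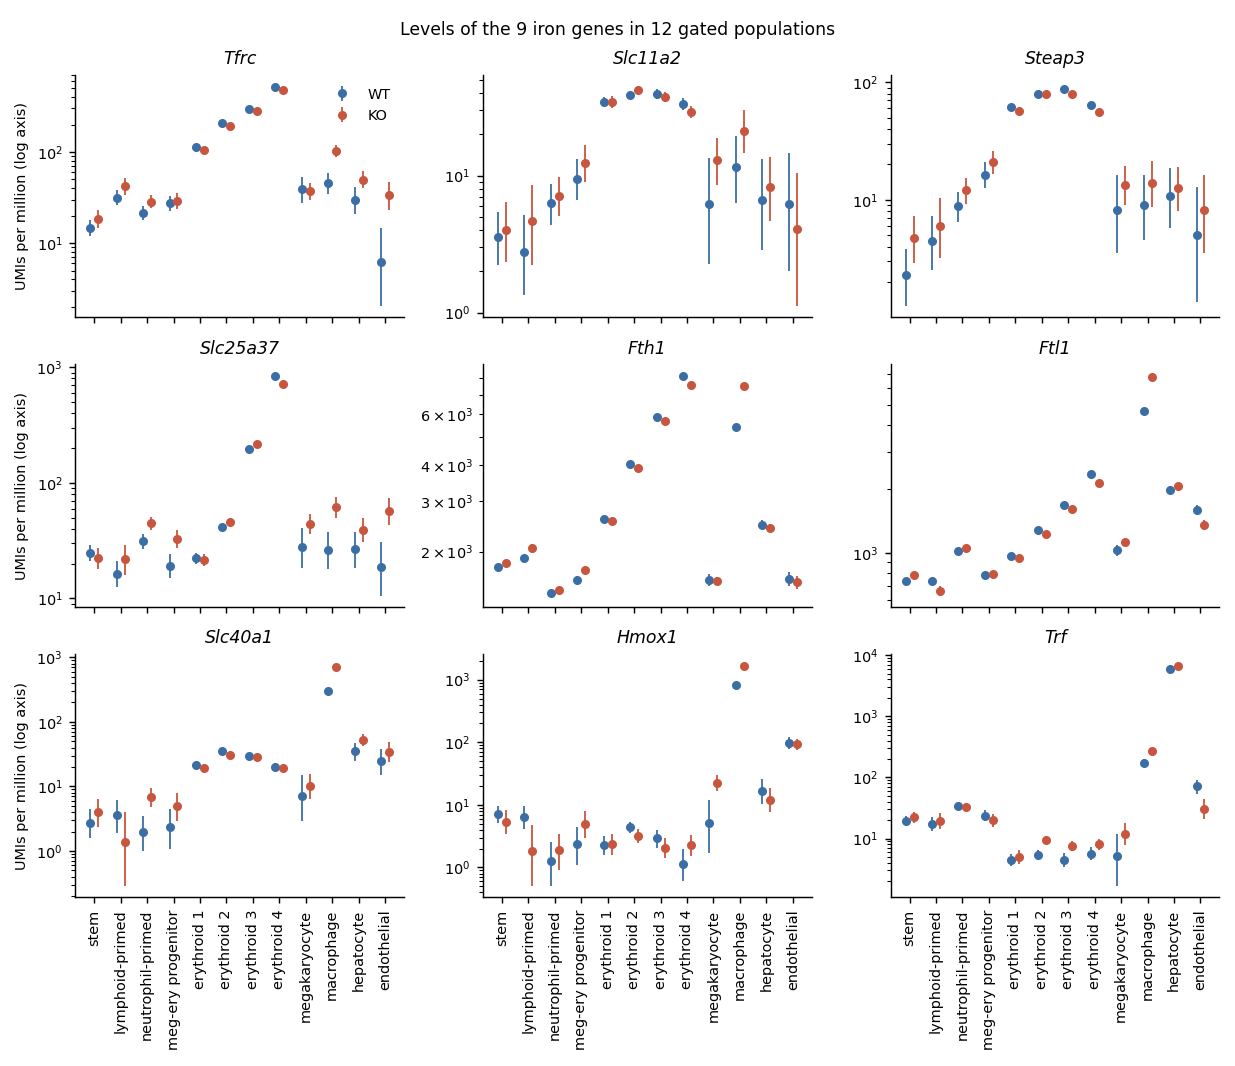
CPM (log axis) of each of the 9 iron genes in the 12 gated populations, with WT and KO as separate points and exact Poisson 95% intervals as bars. Tfrc and Slc25a37 peaked in erythroid stage 4, Hmox1, Slc40a1 and Ftl1 in macrophages and Trf in hepatocytes, in both libraries.

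The uptake genes were erythroid. Tfrc stood at 14.8 CPM (11.9–18.1) in WT and 18.6 (14.7–23.2) in KO stem cells, from 91 and 79 UMIs. In the erythroid stages 1 to 4 it stood at 113, 207, 293 and 522 CPM in WT and at 105, 192, 282 and 473 in KO. Each stage lay above the one before it with no overlap of the intervals in either library, and stage 4 was 35.3-fold (28.7–44.0) above stem cells in WT and 25.4-fold (20.4–32.2) in KO. Outside the erythroid stages Tfrc lay between 6.24 and 45.5 CPM in WT and between 18.6 and 103 in KO, with macrophages highest each time. Erythroid cells held 91.3% of the WT and 87.4% of the KO Tfrc UMIs of all kept cells, and stage 4 alone 34.0% and 33.9%.

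The high Tfrc level of stage 4 was one of nearly every cell. A Tfrc UMI was seen in 18.2% of WT and 14.8% of KO stem cells, and in 99.0% and 98.7% of stage 4 cells. Since stage 4 cells were deeper (median 21255.5 and 16061 UMIs against 14938.5 and 10237), the cells were also thinned to 5000 UMIs each, which left 7.33% and 5.90% of stem cells against 86.2% and 84.6% of stage 4 cells. The median stage 4 cell stood at 466 CPM in WT and 430 in KO.

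Slc11a2 and Steap3, which act beside Tfrc in the endosome, were higher in every erythroid stage than in stem cells and changed less than Tfrc from stage to stage. Slc11a2 was at 3.57 and 4.01 CPM in stem cells and at 34.3, 38.8, 39.3 and 33.5 in the WT and 34.7, 42.4, 37.5 and 29.1 in the KO erythroid stages, and neighbours in the order of these levels had overlapping intervals in both libraries. Steap3 was at 2.27 and 4.71 CPM in stem cells and at 61.7, 79.4, 88.4 and 63.5 in the WT and 56.4, 79.9, 80.0 and 55.3 in the KO stages. Haemoglobin transcripts took 3.67% of WT and 4.85% of KO UMIs in stage 3 and 26.5% and 27.7% in stage 4, which lowers the CPM of every other gene in stage 4. Stage 4 against stage 3 gave a log2 difference of −0.48 for Steap3 in WT and −0.53 in KO, and with haemoglobin UMIs left out of the totals, an alternative added after the data were seen, −0.0867 (−0.22 to 0.0485) and −0.14 (−0.27 to 0.0015), so no fall of Steap3 is given. Slc11a2 changed sign in the same way, from −0.23 and −0.37 to 0.16 (−0.0387 to 0.35) and 0.0288 (−0.17 to 0.22), while Tfrc went from 0.83 and 0.75 to 1.22 (1.16–1.28) and 1.14 (1.09–1.20). In stage 1, Tfrc stood 7.65-fold and 5.64-fold over stem cells, Slc11a2 9.63-fold and 8.66-fold, and Steap3 27.2-fold and 11.96-fold, and both Slc11a2 and Steap3 were nearer to their highest erythroid level than Tfrc was. The Steap3 stem values rest on 14 and 20 UMIs.

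Mitoferrin 1 differed from the uptake genes: its interval in the earliest erythroid cells overlapped that of stem cells, and it had the steepest climb of the 9 genes over the erythroid stages. Slc25a37 stood at 24.8 and 22.4 CPM in stem cells and at 22.3 and 21.6 in erythroid stage 1, with overlapping intervals. Stages 2, 3 and 4 followed at 41.2, 195 and 834 (817–851) CPM in WT and 46.2, 218 and 716 (701–731) in KO. The step from stage 2 to 3 was 2.24 on the log2 scale in both libraries (2.13–2.35 in each), and that from stage 3 to 4 was 2.10 (2.03–2.16) in WT and 1.71 (1.66–1.77) in KO. At 5000 UMIs a cell, Slc25a37 was detected in 11.1% of WT and 10.2% of KO stage 1 cells, 51.2% and 57.5% of stage 3 cells and 94.5% and 89.5% of stage 4 cells, against 10.7% and 6.46% of stem cells. Stage 4 held 63.6% of its WT and 55.4% of its KO UMIs in all kept cells.

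A finer course, with erythroid cells in 9 steps of the late-marker share, placed Tfrc and Slc25a37 highest at the end. Between the first and last steps Tfrc went from 45.5 to 581 CPM in WT and from 54.9 to 522 in KO, and Slc25a37 from 18.4 to 1072 and from 13.8 to 913. Steap3 began at 53.7 and 54.1 CPM, peaked at 94.4 in WT (late share 0.6 to 0.7) and 82.8 in KO (0.4 to 0.5) and ended at 50.5 and 41.3, or at 84.3 and 71.9 after peaks of 100.6 and 87.6 with haemoglobin UMIs left out. Slc40a1 also peaked in the middle, at 36.7 CPM in WT (0.4 to 0.5) and 31.4 in KO (0.5 to 0.6), between 8.44 and 13.8 at the start and 16.1 and 12.9 at the end. Without haemoglobin UMIs it ended at 26.8 and 22.4 after peaks of 36.8 and 32.1, and Slc11a2 was highest at 46.1 in WT (0.7 to 0.8) and at 49.5 in the last step in KO. Cells within 0.05 of a stage limit numbered 445, 469 and 595 of 3909 at the 3 limits.

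**Figure D2:**
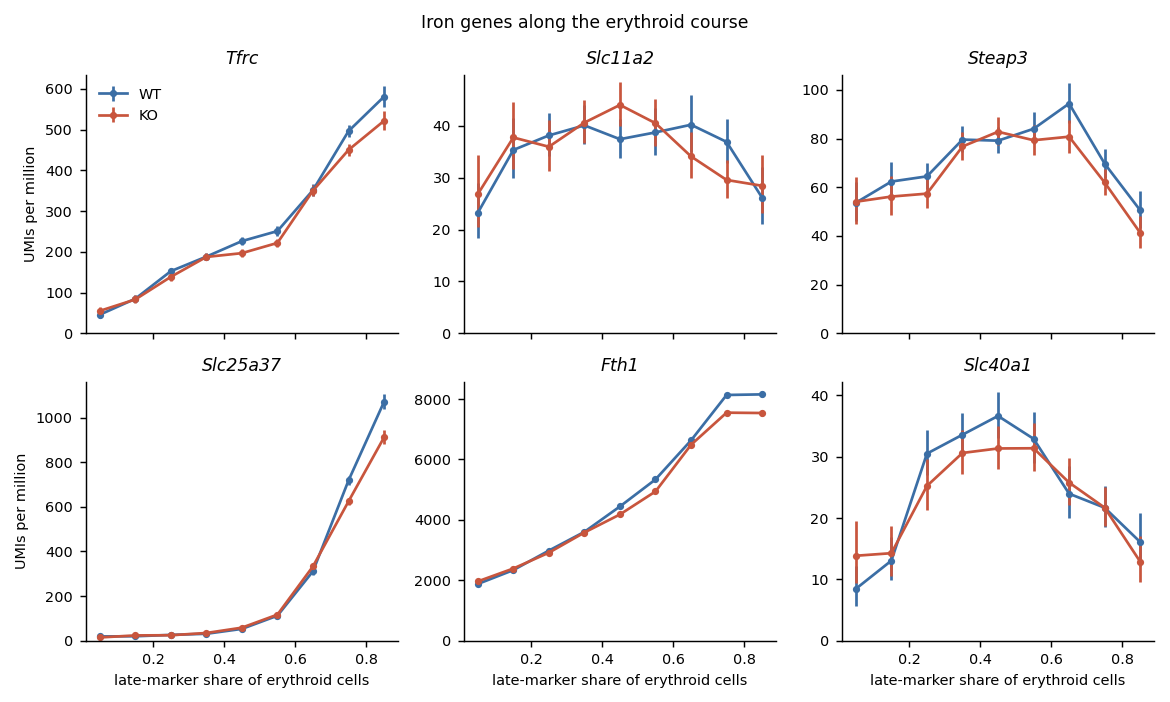
CPM (linear axes from 0) of the iron genes against the late-marker share of erythroid cells in 9 steps, with a line for WT and a line for KO, with exact Poisson 95% intervals. Tfrc and Slc25a37 were highest in the last step, 581 and 1072 CPM in WT, whereas Steap3, Slc11a2 and Slc40a1 peaked before it on this scale, which counts haemoglobin UMIs; without them Slc11a2 in KO was highest in the last step.

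Ferritin was present everywhere and was highest at both ends of the iron route. With 3′ counting each molecule gives about the same chance of a UMI whatever its length, and on that scale ferritin exceeded every other gene of the list in stem cells and erythroid cells: Fth1 stood at 1774 CPM in WT and 1829 in KO stem cells. In erythroid stages 1 to 4 Fth1 was at 2584, 4014, 5876 and 8126 CPM in WT and 2561, 3887, 5663 and 7546 in KO, a step up each time. Macrophages stood at 5418 and 7539 CPM, below stage 4 in WT and level with it in KO, where the intervals overlapped. This order depended on the counting. With haemoglobin UMIs left out of the totals stage 4 stood at 11050 and 10439 CPM, while haemoglobin took only 1.10% and 1.49% of macrophage UMIs. As a mean over cells macrophages were at 8480 CPM in WT and 8905 in KO, above stage 4 at 8334 and 7740. Hepatocytes were at 2482 and 2422 CPM, and the lowest level was in neutrophil-primed progenitors, 1431 and 1464.

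The light chain had another leader. Ftl1 was highest in macrophages, at 4651 CPM in WT and 6741 in KO, 6.30-fold (6.06–6.55) and 8.62-fold (8.29–8.97) above the 738 and 782 of stem cells, and reached 2359 and 2145 in erythroid stage 4. The ratio of Fth1 to Ftl1 UMIs was therefore 2.40 and 2.34 in stem cells, 3.44 and 3.52 in erythroid stage 4, 1.16 and 1.12 in macrophages, 1.25 and 1.17 in hepatocytes and 1.41 and 1.39 in neutrophil-primed progenitors. Heavy-chain-rich ferritin is known from tissues that use iron quickly and light-chain-rich ferritin from those that store it. The absolute ratio is uncertain, since 73.4% of the 50-base windows of the Ftl1 transcript also occur in its processed copy Ftl1-ps1 on chromosome 13, which took 43.6% to 49.1% of the summed UMIs of both in every population. With both added together the ratio was 1.29 and 1.23 in stem cells, 1.93 and 1.90 in erythroid stage 4, 0.632 and 0.578 in macrophages and 0.681 and 0.635 in hepatocytes, which is the same order.

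Recycling genes marked macrophages. Hmox1 stood at 827 CPM (777–880) in WT and 1633 (1569–1699) in KO macrophages, from 1000 and 2451 UMIs, next at 98.6 and 92.9 in endothelial cells and between 1.13 and 7.14 in stem cells and all erythroid stages. It was 116-fold (85.7–161) and 301-fold (200–476) above stem cells in macrophages and below them in all 4 erythroid stages, 0.159 and 0.424 of the stem level in stage 4. Of the macrophages, 33 of 35 in WT and 79 of 82 in KO held a Hmox1 UMI, and at 5000 UMIs a cell in 68.8% (49.99–83.9) and 86.8% (77.1–93.5) of them against 0.205% and 1.01% of erythroid stage 4 cells.

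Ferroportin was shared between macrophages and erythroid cells. Slc40a1 stood at 305 CPM (275–338) in WT and 708 (666–752) in KO macrophages, 111-fold (68.2–192) and 177-fold (110–305) above stem cells, which had 17 UMIs in each library. The next populations were far lower: hepatocytes at 35.0 (25.2–47.3) and 52.5 (42.4–64.1), endothelial cells at 24.97 and 34.7, erythroid stage 2 at 35.1 and 31.0, and the other erythroid stages between 19.1 and 29.2. Because erythroid cells were many and macrophages few, 62.7% of all Slc40a1 UMIs in WT came from erythroid cells and 13.5% from macrophages. In KO the shares were 46.2% and 33.2%, and the macrophage gate held 82 cells there against 35 in WT. Set against C1q, a complement protein of macrophages, there were between 4.39 and 13.5 Slc40a1 UMIs for each C1q UMI in the erythroid stages of both libraries and 0.102 and 0.152 in macrophages. For Hmox1 the same ratio was 0.277 and 0.349 in macrophages and between 0.419 and 0.95 in erythroid cells. The part of macrophage RNA in the erythroid levels was not tested.

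Macrophages also carried more of the uptake genes than stem cells did. Slc11a2 was at 11.6 and 21.3 CPM and Steap3 at 9.10 and 14.0, and Trf at 173 and 265 was 9.04-fold and 11.97-fold above stem cells. The Slc11a2 levels rest on 14 WT and 32 KO UMIs and those of Steap3 on 11 and 21. Summed late erythroid markers were at 75.3 and 135 CPM in macrophages and at 30.3 and 45.0 in stem cells, and their part was not tested. In macrophages 8 of the 9 genes, all but Slc25a37, were at least 2-fold above stem cells in both libraries, where 7.69% of all genes tested were. The same count was 4 in erythroid stage 1 (Tfrc, Slc11a2, Steap3 and Slc40a1; all genes 5.42%), 5 in stage 2 with Fth1 added (6.62%), 7 in stage 3 with Slc25a37 and Ftl1 added (6.19%) and the same number in stage 4 (5.72%). The list was assembled as genes known to act in these cells, so these shares are read against the background only as a description.

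Transferrin was made in hepatocytes. Trf stood at 5988 CPM (5850–6128) in WT and 6706 (6587–6826) in KO hepatocytes, from 7189 and 12144 UMIs in 26 and 58 cells, 313-fold (261–379) and 303-fold (247–375) above stem cells. Those cells held 64.5% and 75.7% of its UMIs in all kept cells. Of the 9 genes, 6 were at least 2-fold above stem cells in hepatocytes of both libraries (Tfrc, Steap3, Ftl1, Slc40a1, Hmox1 and Trf), where 13.7% of all genes tested were; at 0.5 times the gate level the number was 3. Tfrc was at 29.98 CPM (21.0–41.5) and 49.7 (40.0–61.1) there.

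Low Trf elsewhere was set against albumin, a main hepatocyte transcript. Hepatocytes had 0.381 Trf UMIs (0.371–0.392) for each Alb UMI in WT and 0.374 (0.366–0.382) in KO. The erythroid stages, where Trf was at 4.51 to 9.58 CPM, had ratios between 0.26 and 0.457, near the hepatocyte value, and 11.6% and 12.1% of stage 4 cells held a Trf UMI (3.08% and 4.74% when thinned). Macrophages had ratios of 13.1 (7.86–23.3) and 10.2 (7.33–14.6), neutrophil-primed progenitors 3.96 (2.86–5.57) and 2.35 (1.78–3.12), and stem cells 1.19 (0.905–1.57) and 0.563 (0.432–0.729). Per UMI of all hepatocyte markers the ratio was 0.0801 (0.0782–0.0821) and 0.0849 (0.0834–0.0865) in hepatocytes, between 0.0726 and 0.108 in the erythroid stages, and 2.68 and 2.25 in macrophages. Some erythroid intervals missed the hepatocyte value. Per Alb UMI they lay below it in KO stage 1 (0.26, 0.192–0.347) and KO stage 4 (0.296, 0.234–0.372). Per marker UMI the interval of WT stage 2 lay above it (0.108, 0.0882–0.130). The part of hepatocyte RNA in these levels was not tested.

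**Figure D3:**
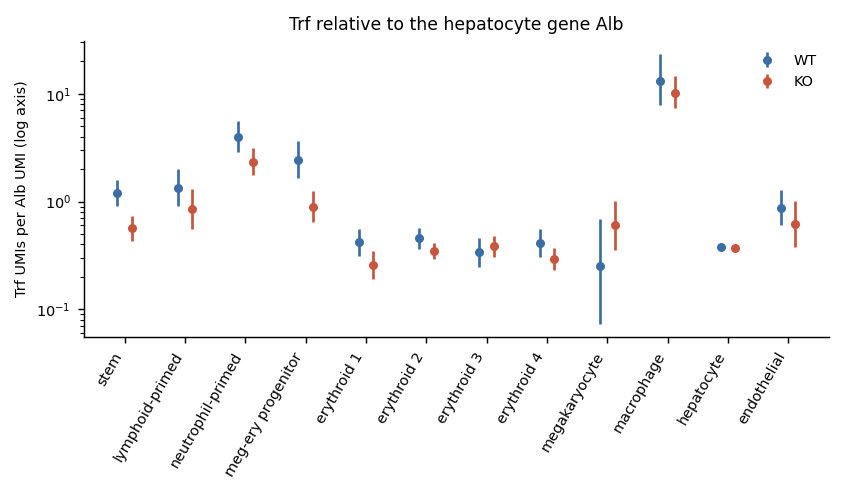
Trf UMIs per Alb UMI (log axis) in the 12 populations, WT and KO as separate points with exact 95% intervals. The erythroid stages lay near the hepatocyte values of 0.381 and 0.374, and macrophages lay highest at 13.1 and 10.2.

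Stem cells had the lowest or nearly the lowest level of the endosomal uptake genes. Among the 12 populations Steap3 was lowest in stem cells in both libraries, Tfrc was lowest in KO and second lowest in WT, where endothelial cells had 6.24 CPM, and Slc11a2 was lowest in KO and second lowest in WT. Except for Tfrc in KO, the stem cell interval overlapped that of the neighbour in this order each time. For Steap3 the neighbour was lymphoid-primed progenitors, at 4.46 CPM in WT and 6.04 in KO. Stem cells with and without proliferation were compared because dividing cells are known to raise the transferrin receptor: 242 WT and 258 KO stem cells held at least 2 UMIs of proliferation genes at 5000 UMIs, and 140 and 98 did not. Tfrc was at 15.3 against 13.7 CPM in WT, a log2 difference of 0.16 (−0.54 to 0.91), and at 20.5 against 12.2 in KO, 0.76 (−0.21 to 1.88), and a difference was not detectable at this depth. Both ferritin chains were slightly lower in the proliferating cells, Fth1 by a log2 difference of −0.28 (−0.34 to −0.22) in WT and −0.14 (−0.22 to −0.06) in KO and Ftl1 by −0.25 (−0.34 to −0.16) and −0.34 (−0.46 to −0.22). The proliferating cells were deeper, with a median of 17558 against 11166.5 UMIs in WT and 11875 against 7993.5 in KO. The stem gene Mecom differed by −0.41 and −0.44 between the same cells and Hlf by −0.18 and 0.02. The part of these in the ferritin differences was not tested.

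The stem gate is the least sharp: 408 of 831 cells that reached it lay within 25% of its limit, against 290 of 4030 for the erythroid gate, 21 of 174 for macrophages and 1 of 104 for hepatocytes. Stem cells also held late-cell RNA, since haemoglobin made up 0.391% of WT and 0.321% of KO UMIs there, more than in erythroid stages 1 and 2 in WT. The part of such RNA in the stem levels was not tested.

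Between genotypes the erythroid stages were close. A difference was counted where KO and WT were at least 0.5 apart on the log2 scale with at least 20 UMIs. None of the 9 genes passed in stage 1 (8.57% of all genes did), only Trf in stage 2 at 0.81 (0.47–1.15; all genes 8.77%), only Trf in stage 3 at 0.76 (0.29–1.24; 11.7%), and Hmox1 at 1.02 (0.02–2.09) and Trf at 0.51 (0.04–0.98) in stage 4 (10.6%). All of these were higher in KO. The summed hepatocyte markers were higher in KO in the same cells, at 97.8 against 50.9 CPM in stage 2 (log2 0.94, 0.84–1.05), 79.5 against 60.9 in stage 3 and 105 against 58.1 in stage 4, and the summed macrophage markers in stage 4 were at 6.89 against 2.96 CPM; their part in the Trf and Hmox1 differences was not tested. The Hmox1 difference rests on 13 WT and 28 KO UMIs.

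In erythroid stage 4 most of the other iron genes leaned the other way by small amounts. Slc25a37 was lower in KO by a log2 difference of −0.22 (−0.26 to −0.18), Steap3 by −0.20 (−0.35 to −0.05), Tfrc by −0.14 (−0.19 to −0.09), Fth1 by −0.11 (−0.12 to −0.09) and Ftl1 by −0.14 (−0.16 to −0.11). Slc11a2 differed by −0.20 (−0.42 to 0.01) and Slc40a1 by −0.06 (−0.33 to 0.21). The median over the 9 genes was −0.14 against 0.02 for all genes. None came near the 0.5 limit, and over the alternative ways of counting Slc25a37 stayed between −0.24 and −0.14 and Tfrc between −0.18 and −0.12. In stages 2 and 3 Slc25a37 had the opposite sign, at 0.17 and 0.16. With 1 pool a genotype, such sizes cannot be told apart from differences between the pools.

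In stem cells Steap3 at 1.05 (−0.00 to 2.15) and Slc40a1 at 0.54 (−0.52 to 1.60) passed the limit, of 11.3% of all genes, from 14 against 20 and from 17 against 17 UMIs. Both intervals held 0, and Steap3 turned to −0.0882 with clusters and Slc40a1 to −0.84 at 2 times the gate level. The median of the 9 genes was 0.17 against 0.01 for all genes.

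Among the populations compared between genotypes, macrophages had the highest median difference over the 9 genes. Relative to WT, KO macrophages had 1.17 (0.72–1.64) more Tfrc on the log2 scale, 0.88 (−0.07 to 1.90) more Slc11a2, 0.62 (−0.50 to 1.82) more Steap3, 1.23 (0.63–1.85) more Slc25a37, 0.54 (0.49–0.58) more Ftl1, 1.21 (1.04–1.39) more Slc40a1, 0.98 (0.87–1.09) more Hmox1 and 0.62 (0.37–0.87) more Trf. These are 8 of the 9 genes, with Fth1 just under the limit at 0.48 (0.43–0.52), where 31.4% of all genes passed in this small gate. The median was 0.88 for the 9 genes and 0.07 for all genes.

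The make-up of the macrophage gate differed between the libraries along with the iron genes. The summed macrophage markers were themselves higher in KO, at 7191 against 4108 CPM (log2 0.81, 0.76–0.86), in 10 of 10 genes, among them Marco at 874 against 179 CPM. In WT the 5 deepest of 35 cells held 39.6% of the UMIs, the deepest with 178488, and their median marker level was 20.01 per 10000 UMIs against 47.6 over all WT macrophages; in KO the 5 deepest held 16.2%. Markers of other cells moved both ways: megakaryocyte markers were at 860 CPM in WT and 1283 in KO, late erythroid markers at 75.3 and 135 and hepatocyte markers at 64.5 and 118, whereas endothelial markers were at 523 and 269, neutrophil markers at 422 and 242, lymphoid markers at 209 and 111, stem cell markers at 137 and 83.3 and proliferation genes at 2535 and 1892. The part of these in the iron differences was not tested.

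How the cells were counted decided the size. Without the 5 deepest cells of each library 6 of the 9 genes passed, with a mean over cells in place of summed UMIs 3, with clusters in place of gates 3, with 2 times the gate level 5, with 0.5 times 4, with cells thinned to 5000 UMIs 1, and within macrophages holding at least 2 of Marco, Timd4 and Cd5l 2. As a mean over cells Hmox1 was at 1935 CPM in WT and 2279 in KO, and Slc40a1 at 500 and 895. Over all alternatives Slc40a1 lay between 0.48 and 1.23 and was higher in KO each time, Hmox1 between 0.10 and 1.11, Tfrc between 0.22 and 1.21, Fth1 between 0.07 and 0.51 and Ftl1 between 0.00 and 0.60. Slc25a37 turned to −0.24 at 0.5 times the gate level, Steap3 to −0.0427 with clusters and −0.25 thinned, and Trf to −0.12 thinned, so no direction is given for these 3 genes. The median macrophage had 474 CPM of Hmox1 in WT (quartiles 105 and 1699) and 838 in KO (407 and 2899), so the cells of the 2 libraries overlapped widely.

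**Figure D4:**
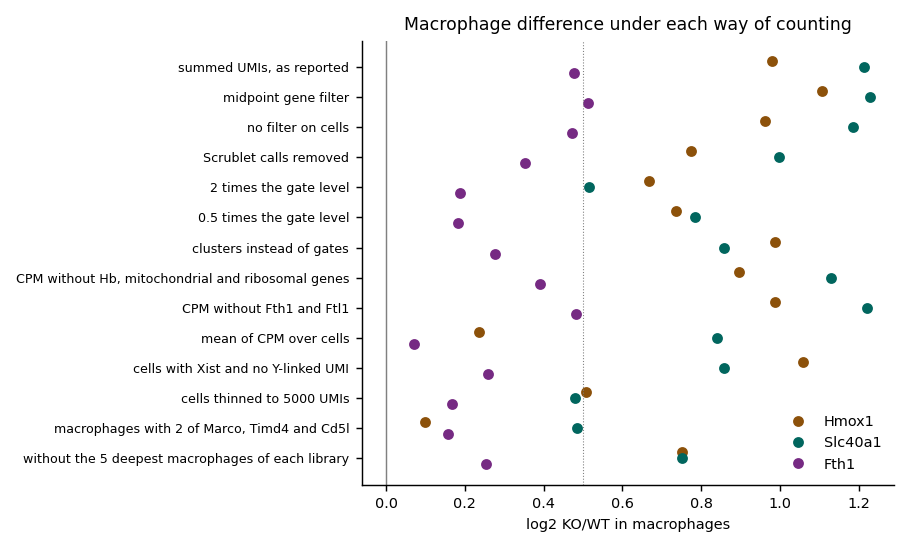
Log2 KO/WT in macrophages (horizontal axis) under each way of counting (1 line each), with iron genes as coloured points. Slc40a1 stayed between 0.48 and 1.23 and Hmox1 between 0.10 and 1.11, so the sign held for both and the size did not.

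In hepatocytes Tfrc at 0.73 (0.16–1.33), Slc25a37 at 0.56 (−0.06 to 1.21) and Slc40a1 at 0.58 (0.05–1.14) were past the limit, of 21.2% of all genes, and Trf differed by 0.16 (0.12–0.21). The summed late erythroid markers in this gate were at 182 CPM in KO and 67.5 in WT, with 12 of 12 genes higher in KO, and their part in the Tfrc and Slc25a37 differences was not tested. With the gate level at 2 times, at 0.5 times, with clusters and with thinned cells Tfrc turned to −0.40, −0.23, −0.10 and −0.73, and Slc25a37 turned to −0.18 at 2 times the gate level, −0.0780 with clusters and −0.83 thinned, so no direction is given for either. The median over the 9 genes was 0.23 against 0.04.

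**Figure D5:**
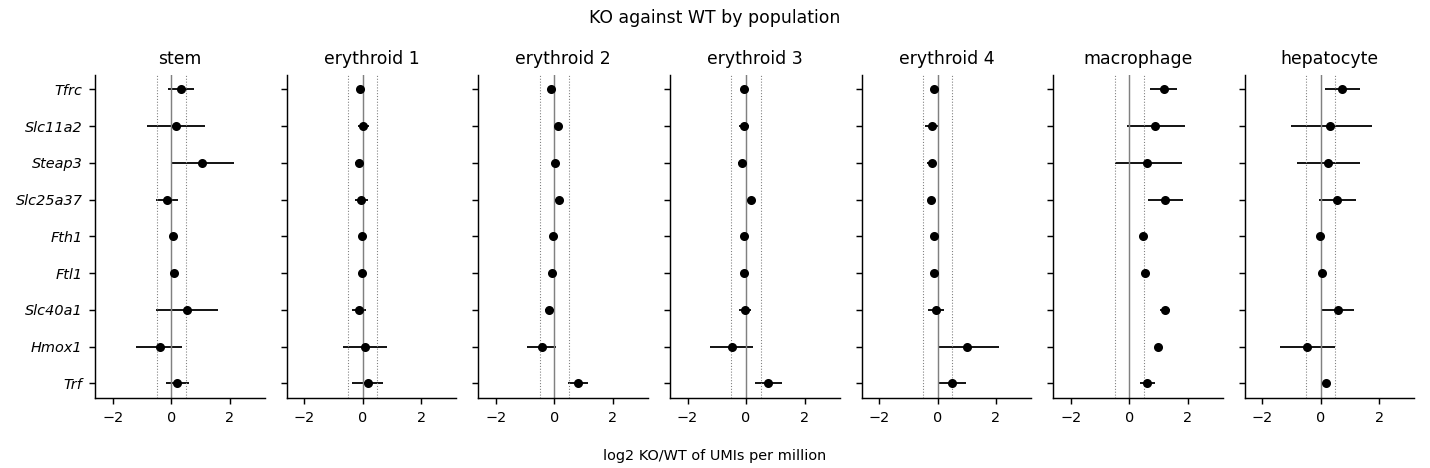
Log2 KO/WT of CPM for the 9 iron genes in each population, with exact conditional 95% intervals and a line at 0. In macrophages all 9 points lay above 0, from 0.48 for Fth1 to 1.23 for Slc25a37, although Slc25a37, Steap3 and Trf changed sign under other ways of counting, while in erythroid stage 4 they lay near 0 except Hmox1 and Trf.

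The wider iron system was read through 59 other genes in 6 lists: 12 of uptake, 16 of mitochondrial iron and iron-sulfur clusters, 4 of storage and iron chaperones, 9 of export and haem recycling, 4 plasma carriers and 14 regulators. In erythroid stage 4, 1 of 8 tested uptake genes (Slc39a8), 4 of 16 mitochondrial genes, 2 of 6 export genes and 1 of 8 regulators were at least 2-fold above stem cells in both libraries, and in stage 2 the counts were 2 of 8, 6 of 16, 2 of 6 and 1 of 8. In macrophages they were 2 of 8 uptake, 0 of 16 mitochondrial, 3 of 6 export and 3 of 8 regulator genes, and in hepatocytes 5 of 9, 1 of 16, 3 of 8 and 4 of 9, with 2 of 4 plasma carriers. Over all genes tested the share was 5.72% in stage 4, 6.62% in stage 2, 7.69% in macrophages and 13.7% in hepatocytes. No storage or chaperone gene of 3 tested passed in any of these populations. None of the 59 held the iron-responsive element as searched.

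Among erythroid genes Blvrb, a biliverdin and flavin reductase, was the highest: its CPM was 41.2 in WT and 59.6 in KO stem cells and then 626 and 643, 1009 and 1006, 1564 and 1575 and 2517 and 2441 over the 4 stages. Glrx5, which passes iron-sulfur clusters on in mitochondria, went from 142 and 160 to 1149 and 1111 CPM in stage 4. Abcb10, a mitochondrial transporter that stabilises mitoferrin 1, went from 5.35 and 6.60 to 156 and 140, 29.2-fold and 21.2-fold, against 33.6-fold and 32.0-fold for Slc25a37 itself. The second transferrin receptor Tfr2 had an early peak, at 7.62 and 6.36 CPM in stem cells, 27.5 and 28.0 in stage 2 and 14.99 and 15.3 in stage 4, unlike Tfrc.

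In macrophages the genes around Hmox1 stood out. Lrp1, a receptor for haemopexin-bound haem, was at 91.0 and 171 CPM against 1.62 and 4.01 in stem cells, the haem transporter Slc48a1 at 139 and 215, and the biliverdin reductase Blvra at 101 and 174. In hepatocytes the haem carrier Hpx was at 371 and 426 CPM, from 2 UMIs in the stem cells of each library. Hamp, which encodes the hormone hepcidin, had 7 UMIs in all populations of both libraries.

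Between genotypes, Tmem14c, which is needed for porphyrin transport into erythroid mitochondria, was the one gene of the lists with at least 200 UMIs that passed the 0.5 limit in 3 erythroid stages: 76.4 against 52.4 CPM in stage 2 (log2 0.54, 0.43–0.66), 122 against 85.5 in stage 3 (0.51, 0.40–0.62) and 175 against 123 in stage 4 (0.51, 0.41–0.61), higher in KO each time; it was also past the limit in stem cells, macrophages and hepatocytes with fewer UMIs. No list had a member past the limit in stage 1. In macrophages 3 of 5 uptake, 4 of 15 mitochondrial, 4 of 6 export and 2 of 8 regulator genes passed, where 31.4% of all genes did and the mitochondrial and regulator shares were no higher than that. Among them were Lrp1 at 0.91 (0.58–1.25), Blvra at 0.78 (0.47–1.11), Vps35 at 0.70 (0.41–0.99), Slc48a1 at 0.63 (0.36–0.91) and Blvrb at 0.60 (0.43–0.77), beside the gate differences given above. In stem cells Blvrb was 0.53 (0.28–0.79) higher in KO. Summed late erythroid markers there were at 45.0 CPM in KO against 30.3 in WT, early ones at 38.4 against 30.2 and hepatocyte markers at 173 against 109. The part of these in the Blvrb difference was not tested.

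The genes whose levels ran most like each of the 9 over the 24 sums of population and library (Pearson r of log2(CPM + 1), 10870 genes) were mostly genes of the same cells. They are named as a description; the 24 points share 2 libraries and their depth. Tfrc was nearest to Tspan33 (0.95), Uros (0.94) and Ell2 (0.94), Slc11a2 to Slc38a5 (0.93), and Steap3 to Slc38a5 (0.95) and Ifrd2 (0.95). Slc25a37 was nearest to Gm867 (0.97) and Btnl10 (0.96), Hmox1 to Gas6 (0.97) and Sdc3 (0.96), Trf to Scp2 (0.96) and Phyh (0.95), and Fth1 to Zdhhc14 (0.93). Ftl1 was nearest to its copy Ftl1-ps1 (0.996), with which it shares sequence, and then to the cathepsin gene Ctsb (0.97). Among the 9, Slc11a2 and Steap3 ran most alike (0.96), Tfrc and Steap3 less so (0.88), Slc40a1 and Hmox1 at 0.73 and Fth1 and Hmox1 hardly (0.16).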

How the data were processed

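Single-cell 3′ libraries (v3 chemistry) of 1 WT and 1 KO pool were analysed. The authors ran Cell Ranger 6.0.0 with default parameters on mm10 for each library separately and deposited matrices of raw UMI counts, without normalization; the annotation release is not given in the sources used here. Cells with at least 1000 genes and at most 20% mitochondrial counts were kept, assigned by marker gates (per 10000 counts, at least 4 from 3 markers for stem and early erythroid cells, 10 from 4 for macrophages and 50 from 6 for hepatocytes), and summed per population and library; CPM is a gene's share of all counts of those cells. Some erythroid markers are not reported here by name. Ratios carry exact conditional intervals, shares Clopper-Pearson intervals, all at 95%. No test between genotypes was possible. A fold over stem cells was counted at 2-fold in both libraries and a genotype difference at a log2 of 0.5 with 20 counts; further listed genes were named with values from 200 counts or by the order of their ratio or total. Scrublet marked 135 WT and 256 KO cells, which were kept. 7 barcode sequences occurred in both libraries. The members, lists and gates were chosen with earlier results of these data known. Genes and UTRs came from GENCODE vM21 (32158 IDs matched). Tools were Python 3.11.15, numpy 2.4.6, scipy 1.17.1, pandas 2.3.3 and scanpy 1.11.5, and the counting steps were tested on simulated data. Alternatives covered filters, gates, clusters, scaling, thinning, doublets and embryo sex.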

Additional observations from a re-analysis of the deposited data

How the results depend on the processing

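No paired analysis was possible because the labels gave 1 sample to WT and 1 to KO. Over the alternatives, 594 of 716 log2 KO/WT values of single genes moved by less than their interval and 109 moved by more. Another 13 changed sign, which was counted only where the value as reported was at least 0.5 from 0 with at least 20 UMIs. Any change of sign of a smaller value is among the 594 and the 109. Of the counts of genes at least 2-fold above stem cells 73 of 74 held, the exception being 3 in hepatocytes at 0.5 times the gate level. The counts past the genotype limit that moved were, in stem cells, 1 with clusters, 1 thinned and 0 with 50 UMIs; in erythroid stage 1, 1 with clusters; in stage 2, 2 without Scrublet calls, at 0.5 times the gate level and as a mean over cells; in stage 3, 2 at 0.5 times the gate level and among cells with Xist and no Y-linked UMI, and 0 thinned; in stage 4, 1 with another limit on genes per cell, thinned or with 50 UMIs; in macrophages, 5 at 2 times the gate level, 4 at 0.5 times, 3 with clusters or a mean over cells, 5 with Xist and no Y-linked UMI, 1 thinned and 2 with Marco, Timd4 and Cd5l, an alternative chosen after seeing the data like the 1 without the deepest cells; in hepatocytes, 1 at 2 or 0.5 times the gate level or with clusters and 0 thinned. Among the values past the genotype limit, the signs that changed were those of Tfrc in hepatocytes (−0.40 at 2 times the gate level, −0.23 at 0.5 times, −0.10 with clusters, −0.73 thinned), Slc25a37 in hepatocytes (−0.18 at 2 times, −0.0780 with clusters and −0.83 thinned) and in macrophages (−0.24 at 0.5 times), Steap3 in stem cells (−0.0882 with clusters) and in macrophages (−0.0427 with clusters, −0.25 thinned), Slc40a1 in stem cells (−0.84 at 2 times) and Trf in macrophages (−0.12 thinned). The cause was not tested. Leaving haemoglobin UMIs out of the totals, also chosen after seeing the data, turned Slc11a2 in erythroid stage 4 against stage 3 to 0.16 in WT and 0.0288 in KO. Slc11a2 and Steap3 gave no thinned hepatocyte ratio because 1 library was at 0.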

Other observations

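Macrophages holding at least 2 of Marco, Timd4 and Cd5l, markers of resident tissue macrophages, numbered 17 of 35 in WT (48.6%, 31.4–66.0) and 41 of 82 in KO (50%). Slc40a1 was at 668 CPM in them and 130 in the other macrophages of WT, and at 934 and 452 in KO, log2 differences of 2.36 (2.03–2.70) and 1.05 (0.86–1.24). Hmox1 differed between the same groups in WT, 1581 against 463 CPM (1.77, 1.59–1.96), and hardly in KO, 1693 against 1565 (0.11, −0.00 to 0.23). The cells without these markers were deeper in WT, with a median of 34988.5 against 13754 UMIs, but not in KO, with 13738 against 15825. The median cell with and without the markers had 1091 and 146 CPM of Hmox1 in WT and 854 and 806 in KO. The part of depth in these values was not tested. This split was chosen after the values were seen, and the difference between the libraries was not tested.

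In the other populations, the KO/WT differences of at least 0.5 on the log2 scale whose counting interval did not hold 0 went both ways. Higher in KO were Tfrc in endothelial cells (2.43, 1.07–4.15, from 5 and 33 UMIs), Hmox1 in megakaryocytes (2.14, 0.82–3.83, from 5 and 49), Slc40a1 in neutrophil-primed progenitors (1.78, 0.77–2.90, from 11 and 36), Slc25a37 in endothelial cells (1.61, 0.77–2.54), in megakaryocyte-erythroid progenitors (0.77, 0.34–1.21), in megakaryocytes (0.68, 0.0483–1.35) and in neutrophil-primed progenitors (0.51, 0.22–0.80). Summed late erythroid markers were higher in KO by 0.99 (0.74–1.24) in megakaryocyte-erythroid progenitors and 0.54 (0.33–0.75) in neutrophil-primed progenitors. They differed by 0.33 in megakaryocytes and 0.27 in endothelial cells, with intervals that held 0. Summed macrophage markers in megakaryocytes (20 WT and 51 KO cells) were at 25.7 CPM in WT and 44.9 in KO. The part of these markers in the Slc25a37 and Hmox1 differences was not tested. Lower in KO were Hmox1 in lymphoid-primed progenitors (−1.79, −3.78 to −0.24, from 23 and 4) and Trf in endothelial cells (−1.22, −1.90 to −0.55), where the summed hepatocyte markers were at 573 CPM in WT and 223 in KO and their part was not tested. In the lymphoid-primed progenitors the summed macrophage markers were at 49.6 CPM in WT and 19.98 in KO, and C1q had 37 and 4 UMIs. Their part in the Hmox1 difference was not tested. The plasma haemoglobin carrier Hp, a hepatocyte product, was at 15.8 and 22.1 CPM in hepatocytes but at 203 and 244 in neutrophil-primed progenitors. Of 29 clusters, 1 held 101 KO and 0 WT cells, erythroid stage 3 by its markers, with a median of 6867 UMIs.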
